A study of Homo sapiens with 6 samples.

Results

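The genes described here make up the transcription programme that MLL-fusion leukaemias are known for, and are a list of names: the rule takes the rows with these symbols and uses no measured value, though the list was drawn up with earlier results of these data known. The 10 genes are HOXA5, HOXA7, HOXA9, HOXA10, MEIS1, PBX3, MEF2C, MYB, CDK6 and DOT1L. All 10 were present among the 56305 genes of the deposited count tables, and all 10 passed the filter on low counts that left 20399 genes for testing. RNA sequencing was done on MOLM13, an established human acute myeloid leukaemia (AML) cell line whose labels give an internal tandem duplication of FLT3 and a translocation between chromosomes 9 and 11. This translocation joins KMT2A (MLL) to MLLT3 (AF9). One group of 3 libraries came from cells given the solvent DMSO and the other group of 3 came from cells given 1 μM ZW27941, both for 24 h. ZW27941 is a proteolysis-targeting chimera (PROTAC) that brings METTL3, the catalytic subunit of the RNA N6-methyladenosine (m6A) writer, to the VHL ubiquitin ligase for degradation. Both groups carry the fusion and the FLT3 duplication, and both are a single cell line, so the comparison concerns the response of an MLL-fusion cell to ZW27941 and not the fusion itself. The labels do not say that the libraries came from separate cultures, so p-values measure the spread between these libraries, which may be technical.

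In MLL-rearranged leukaemia, the fusion protein brings the elongation machinery and DOT1L, which methylates histone H3 within gene bodies, to a small set of targets. The HOXA genes and MEIS1 are the best known of these targets. HOXA9 binds DNA together with MEIS1 and PBX3, which belong to the TALE homeobox class, and this complex keeps progenitors from differentiating. MEF2C, MYB and CDK6 are further targets that sustain the leukaemic state. METTL3 adds m6A to messenger RNAs, which affects their stability and translation.

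The upstream sequences of 3 genes are shown: HOXA9 and MEIS1 as the best known pair of the programme, neither of which passed the test, and HOTTIP as the transcript of the HOXA cluster with the clearest change. Each is the 250 bases before the RefSeq start on the gene's own strand, from build GRCh38.p14. In the GENCODE v29 annotation, which has further starts, all 3 windows lie inside the gene's own body, with 0 exon bases. Capitals mark the letters of a TATA box (TATAAA) or a CCAAT box (CCAAT, or ATTGG when it lies on the other strand).
HOXA9, chr7:27165538-27165787, minus strand: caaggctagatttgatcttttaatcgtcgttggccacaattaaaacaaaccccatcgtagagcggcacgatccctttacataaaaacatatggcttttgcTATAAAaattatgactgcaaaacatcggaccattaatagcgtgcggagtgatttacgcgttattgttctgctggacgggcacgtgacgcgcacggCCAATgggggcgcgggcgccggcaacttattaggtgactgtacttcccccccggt
MEIS1, chr2:66434875-66435124, plus strand: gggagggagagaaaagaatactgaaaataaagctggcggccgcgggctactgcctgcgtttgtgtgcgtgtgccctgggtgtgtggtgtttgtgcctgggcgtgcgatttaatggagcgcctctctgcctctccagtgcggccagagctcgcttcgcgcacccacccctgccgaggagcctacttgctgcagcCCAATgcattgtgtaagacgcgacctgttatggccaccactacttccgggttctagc
HOTTIP, chr7:27200171-27200420, plus strand: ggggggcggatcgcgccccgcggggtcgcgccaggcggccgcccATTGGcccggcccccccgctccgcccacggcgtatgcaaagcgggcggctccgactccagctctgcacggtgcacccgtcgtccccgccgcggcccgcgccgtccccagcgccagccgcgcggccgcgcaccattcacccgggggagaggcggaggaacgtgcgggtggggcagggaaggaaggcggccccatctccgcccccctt
The HOXA9 window held TATAAA 150 bases and CCAAT 55 bases before the start. The MEIS1 window held CCAAT 57 bases before the start, and the HOTTIP window held it 206 bases before the start on the other strand. Promoters of 8 of the 10 genes were matched in the RefSeq table. On both strands, CCAAT was found in 4 of these 8 (HOXA7, HOXA9, HOXA10 and MEIS1), against 33.0% of all 27305 promoters. TATAAA was found in HOXA9 and HOXA10, against 11.1% of all promoters. All 250 bases of the HOXA10 window, and of the MEF2C window, are exon bases in GENCODE v29. The MEIS motif TGACAG was found only in PBX3 among the 8, against 13.1%, and the MYB motif AACNGNC also only in PBX3, against 26.9%. The HOX-PBX motif TGATNNAT was in 0 of the 8 and in 6.69% of all promoters. These matches describe letters in short windows and say nothing of binding.

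The libraries held 143454176 to 178744976 counts on genes, and the common biological coefficient of variation between libraries of a group was 3.11%. The share of reads with more than 1 alignment was highest in ZW27941 replicate 3, at 5.25%, against 3.63% to 4.07% in the others. All 9 myeloid markers were detected at 1 CPM or more (CPM is a gene's count scaled to the size of its library, with TMM factors), and their summed level was 2650 to 2700 CPM on DMSO and 2900 to 2980 CPM on ZW27941, with LYZ the highest. Markers of T cells, erythroid cells and epithelium were below 1 CPM, as were 3 of the 4 fibroblast markers (all but COL1A1). The B-cell list summed to 27.1 to 28.6 CPM on DMSO and 29.2 to 30.2 CPM on ZW27941, with PAX5 the highest. The summed myeloid and B-cell levels moved with the treatment, and their part in the results below was not tested. METTL3 itself had 120, 122 and 122 CPM on DMSO and 119, 121 and 128 CPM on ZW27941, a log2 fold change of 0.013 (adjusted p = 0.765, edgeR's quasi-likelihood test, Benjamini-Hochberg adjusted). ZW27941 acts on the METTL3 protein, so this transcript is no check of the labels.

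The MLL-fusion programme stayed close to its DMSO level after 24 h of ZW27941. Of the 10 genes, 1 rose (HOXA10) and 1 fell (HOXA5) at an adjusted p below 0.05, against 30.1% of all genes tested. The 30.1% comprised 16.3% higher and 13.8% lower. Among the 10786 genes with a mean of at least 5 CPM, a level that all 10 genes reach, 44.4% passed. The median log2 fold change of the 10 genes was −0.013, beside −0.0019 over all genes. The median size of the change, regardless of sign, was 0.051 on the log2 scale for the 10 genes, 0.115 for all genes and 0.0765 for genes of at least 5 CPM. The 95% intervals of the 10 genes reached at most 0.31 from 0, for HOXA5, and at most 0.18 among the 8 genes that did not pass. Counting non-overlap alone, 6 of the 10 had all ZW27941 libraries on one side of all DMSO libraries (3 higher, 3 lower), against 41.6% of all genes (21.7% higher and 19.9% lower). RNA was measured in bulk, so fewer cells with a transcript and less of it per cell cannot be told apart.

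**Figure D1:**
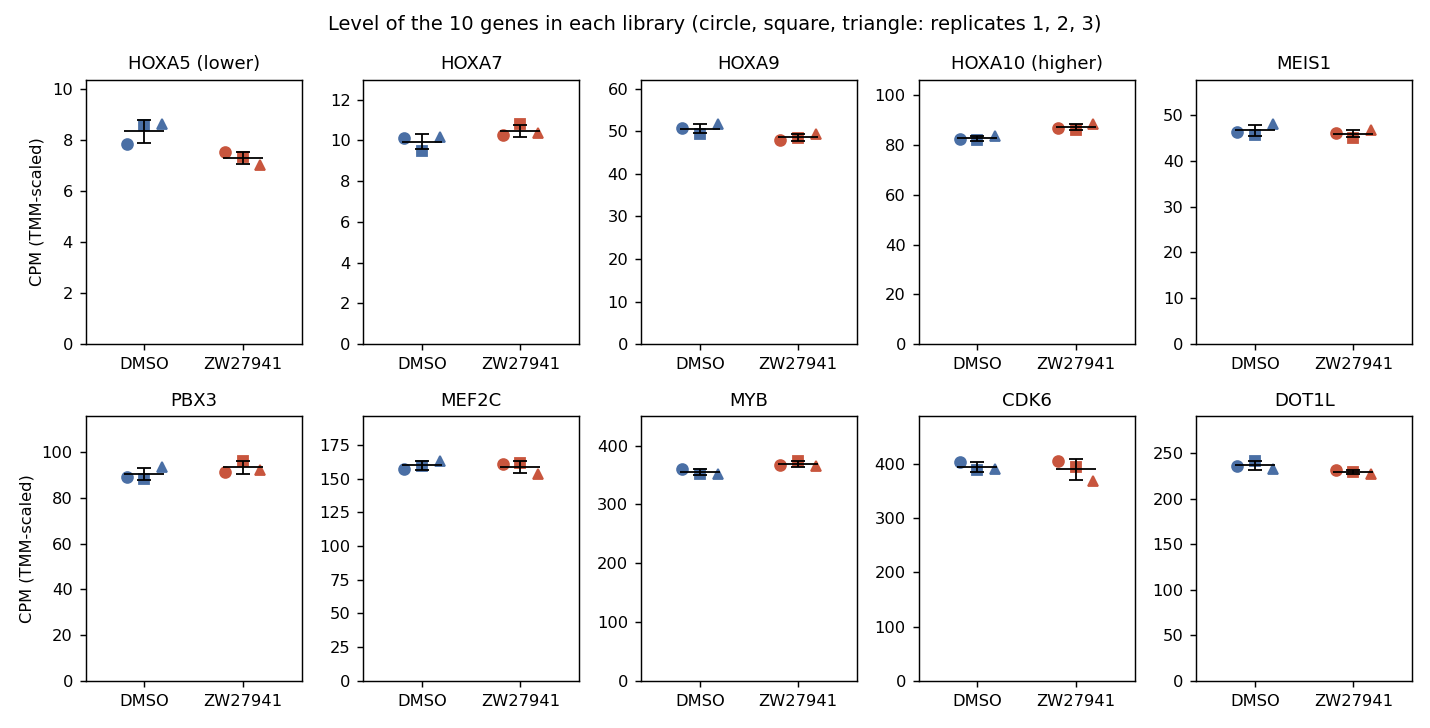
TMM-scaled CPM (vertical axes, from 0) of each of the 10 genes in the 3 DMSO (blue) and 3 ZW27941 (red) libraries, with a point for each library, a line at the group mean and bars for its SD. HOXA5 is lower and HOXA10 is higher in every ZW27941 library, and the group means of the 10 genes differ by little relative to their levels.

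Of the 4 HOXA homeodomain factors, HOXA5 and HOXA10 passed the test in opposite directions. HOXA5, in the middle of the cluster at chr7:27141052-27143668 (minus strand, hg38), had 7.84, 8.58 and 8.64 CPM on DMSO and 7.52, 7.34 and 7.04 CPM on ZW27941. All 3 treated libraries lay below all 3 controls, and the mean was 12.6% lower. The log2 fold change was −0.19 (SE 0.058, 95% interval −0.31 to −0.075, adjusted p = 0.0129, edgeR's quasi-likelihood test, Benjamini-Hochberg adjusted). It was the largest change among the 10 genes, but the call was lost when either of the higher controls was left out: without DMSO replicate 2 the adjusted p was 0.0661 and without DMSO replicate 3 it was 0.0721.

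HOXA10, a gene of the more 5′ side of the cluster at chr7:27170591-27180261, had 82.5, 82.0 and 83.9 CPM on DMSO and 86.9, 86.2 and 88.6 CPM on ZW27941. Every treated library was above every control, by 5.35% on average. The log2 fold change was 0.075 (SE 0.025, 95% interval 0.023 to 0.13, adjusted p = 0.0267 by the same edgeR test). The call was lost, with adjusted p of 0.0573 to 0.0878, when DMSO replicate 1, DMSO replicate 2, ZW27941 replicate 1 or ZW27941 replicate 3 was left out, at log2 fold changes of 0.074, 0.069, 0.078 and 0.062. It was also lost under upper quartile scaling (0.052, adjusted p = 0.132). HOXA10 shares 26.3% of its exon bases with other annotated genes, and reads that fall on 2 genes are not assigned. Of these 976 bases, 368 are shared on its own strand, and the rest matter only if the counting ignored strand.

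HOXA9, the homeodomain factor most closely tied to MLL-fusion leukaemia, had 50.6, 49.4 and 51.7 CPM on DMSO and 47.8, 48.4 and 49.3 CPM on ZW27941. The treated libraries were all below the controls, but the change did not pass the threshold (log2 fold change −0.061, SE 0.028, 95% interval −0.12 to −0.0028, adjusted p = 0.108 in edgeR). Its gene body, chr7:27162435-27175180, shares 27.0% of its exon bases with HOXA10-AS, a read-through transcript and MIR196B. HOXA7, whose exon bases at chr7:27153716-27157936 overlap the antisense HOXA-AS3 for 62.5%, had 10.1, 9.5 and 10.2 CPM on DMSO and 10.3, 10.8 and 10.3 CPM on ZW27941. Its treated libraries all lay above the controls, by a margin that did not pass (log2 fold change 0.076, 95% interval −0.024 to 0.18, adjusted p = 0.259). The counting's strand setting is not given in the sources used here, and without strand, reads on the shared bases are left out of both HOXA7 and HOXA-AS3.

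MEIS1 and PBX3, the TALE partners of HOXA9, did not pass. MEIS1 (chr2:66433452-66573869, plus strand) had 46.2, 45.6 and 48.0 CPM on DMSO and 46.0, 45.0 and 46.6 CPM on ZW27941. The groups overlapped, with a log2 fold change of −0.022 and a 95% interval of −0.082 to 0.039 (adjusted p = 0.626). PBX3 (chr9:125747345-125967377, plus strand) had 89.4, 88.5 and 93.4 CPM on DMSO and 91.5, 96.4 and 92.3 CPM on ZW27941. It overlapped as well, with a log2 fold change of 0.046 and a 95% interval of −0.012 to 0.10 (adjusted p = 0.234). For both cofactors no bound of the interval lay further from 0 than the 0.10 of PBX3.

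The other transcription factors were MEF2C, a MADS-box factor, and MYB, a factor that progenitors need to proliferate. MEF2C (chr5:88717117-88904257, minus strand) had 157, 159 and 163 CPM on DMSO and 161, 162 and 153 CPM on ZW27941. Its log2 fold change was −0.011 (95% interval −0.066 to 0.044, adjusted p = 0.799), and ZW27941 replicate 3 was the lowest of the 6 libraries. MYB (chr6:135181315-135219173, plus strand) had 361, 352 and 352 CPM on DMSO and 367, 375 and 365 CPM on ZW27941. All treated libraries were above all controls, with a log2 fold change of 0.056 (SE 0.024, 95% interval 0.0057 to 0.11) that missed the threshold (adjusted p = 0.0873 in edgeR). Scaling by library size alone took it past (0.066, adjusted p = 0.0447), as did leaving out ZW27941 replicate 3 (adjusted p = 0.0476).

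The enzymes of the list are CDK6, a G1 kinase that pairs with D-type cyclins, and DOT1L, the H3 methyltransferase that the fusion recruits. CDK6 (chr7:92604921-92836594, minus strand) had 404, 388 and 390 CPM on DMSO and 406, 394 and 369 CPM on ZW27941. Its groups overlapped, and ZW27941 replicate 3 was the lowest library (log2 fold change −0.016, 95% interval −0.078 to 0.047, adjusted p = 0.743). DOT1L (chr19:2164149-2232578, plus strand) had 236, 242 and 233 CPM on DMSO and 232, 230 and 227 CPM on ZW27941. All treated libraries lay below all controls, with a log2 fold change of −0.046 (95% interval −0.096 to 0.0048, adjusted p = 0.170). Under upper quartile scaling, HOXA9 (−0.084, adjusted p = 0.0261) and DOT1L (−0.069, adjusted p = 0.0352) passed, so that the programme then held 0 higher and 3 lower genes. The same scaling moved the median of all genes tested to −0.025, with 2644 of them higher and 3643 lower.

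**Figure D2:**
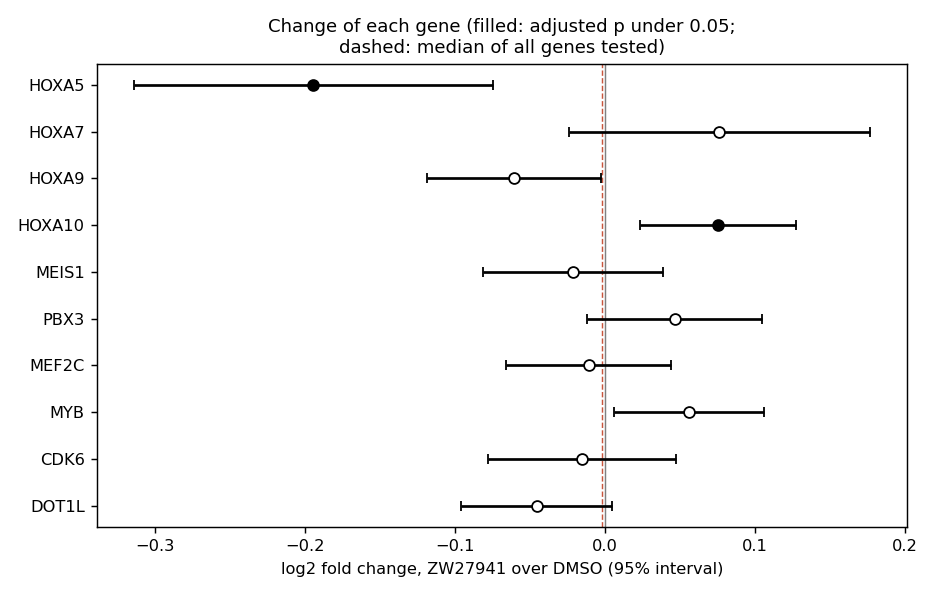
Log2 fold change of ZW27941 over DMSO (horizontal axis) with its 95% interval for each of the 10 genes, filled where the adjusted p was under 0.05, with a dashed line at the median of all genes tested. Only the intervals of HOXA5, HOXA9, HOXA10 and MYB leave out 0, and of these HOXA5 and HOXA10 passed the adjusted threshold.

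Ordered by level per exon length, given as TPM (counts per kilobase of exon, scaled to the same total in each library), MYB was the highest at 245.9 ± 3.75 (SD, n = 3) on DMSO and 256 ± 5.92 on ZW27941. CDK6 followed at 122 ± 2.92, then HOXA10 at 85.0 ± 0.892, DOT1L at 80.0 ± 1.68 and PBX3 at 76.0 ± 2.08. HOXA9 stood at 63.6 ± 1.37 and MEF2C at 51.7 ± 1.00. A lower group held HOXA5 at 18.6 ± 0.978, MEIS1 at 16.2 ± 0.421 and HOXA7 at 15.7 ± 0.591. The ranges over all 6 libraries overlapped between DOT1L and PBX3, between HOXA5 and MEIS1, and between MEIS1 and HOXA7, so these neighbours are not ordered. Exon length by the longest transcript put MEIS1 at 24.7 TPM, above HOXA5 at 13.7 TPM. By that length CDK6 stood at 91.9 TPM on DMSO, close to HOXA10 at 88.3, DOT1L at 86.4 and PBX3 at 84.5 TPM. The gap between CDK6 and HOXA10 thus depends on the length used. Leaving out the exon bases that genes on either strand share raised HOXA7 to 41.8 TPM, HOXA9 to 87.1 TPM and HOXA10 to 115 TPM. HOXA7 shares 0 exon bases on its own strand, so its rise holds only if the counting ignored strand. For HOXA9, 481 of 819 shared bases lie on its own strand, and for HOXA10, 368 of 976. Part of the rise of these 2 genes therefore also holds only if strand was ignored. The lengths came from GENCODE v29, which may differ from the annotation the counts were made with.

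Across the rest of the HOXA cluster, 1 of 7 tested coding genes changed (14.3%, against 30.1% of all genes tested). HOXA2 had 1.84, 1.90 and 1.95 CPM on DMSO and 1.36, 1.41 and 1.58 CPM on ZW27941, a log2 fold change of −0.38 (SE 0.096, adjusted p = 0.00379 in edgeR). All treated libraries were below the controls at this low level. HOXA13, at the 5′ end of the cluster, had 72.8, 71.9 and 76.0 CPM on DMSO and 72.9, 74.4 and 75.3 CPM on ZW27941 (log2 fold change 0.012, 95% interval −0.045 to 0.069). The log2 fold changes of HOXA3 (0.067), HOXA4 (−0.15), HOXA6 (−0.13) and HOXA11 (−0.014) did not pass either, and EVX1 was not tested. HOXA11 and HOXA13 were at 69.7 and 55.0 TPM on DMSO, on either side of HOXA9 (by the longest transcript, 49.9 and 39.7 TPM, both below its 66.6 TPM), whereas HOXA2 and HOXA4 lay at 2.93 and 5.13 TPM.

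Among 6 non-coding RNAs of the cluster, 1 changed, HOTTIP (16.7%, against 30.1% of all genes tested). This long non-coding RNA starts beside HOXA13 and is known to promote transcription of the 5′ HOXA genes. It had 8.46, 8.10 and 8.24 CPM on DMSO and 10.6, 9.90 and 10.9 CPM on ZW27941. Every treated library was above every control, with a log2 fold change of 0.34 (SE 0.052, 95% interval 0.24 to 0.45, adjusted p = 2.73e-05, edgeR's quasi-likelihood test). The windows before HOTTIP and HOXA13 share 171 bases (chr7:27200171-27200341), which is the first part of the HOTTIP sequence printed above. The difference between the changes of HOTTIP and HOXA13 was not tested. HOXA11-AS (0.21, adjusted p = 0.0876), HOXA-AS2 (0.56, adjusted p = 0.0991, at 0.186 CPM on DMSO), HOXA10-AS (0.12), HOXA-AS3 (−0.39) and HOTAIRM1 (0.023) did not pass.

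**Figure D3:**
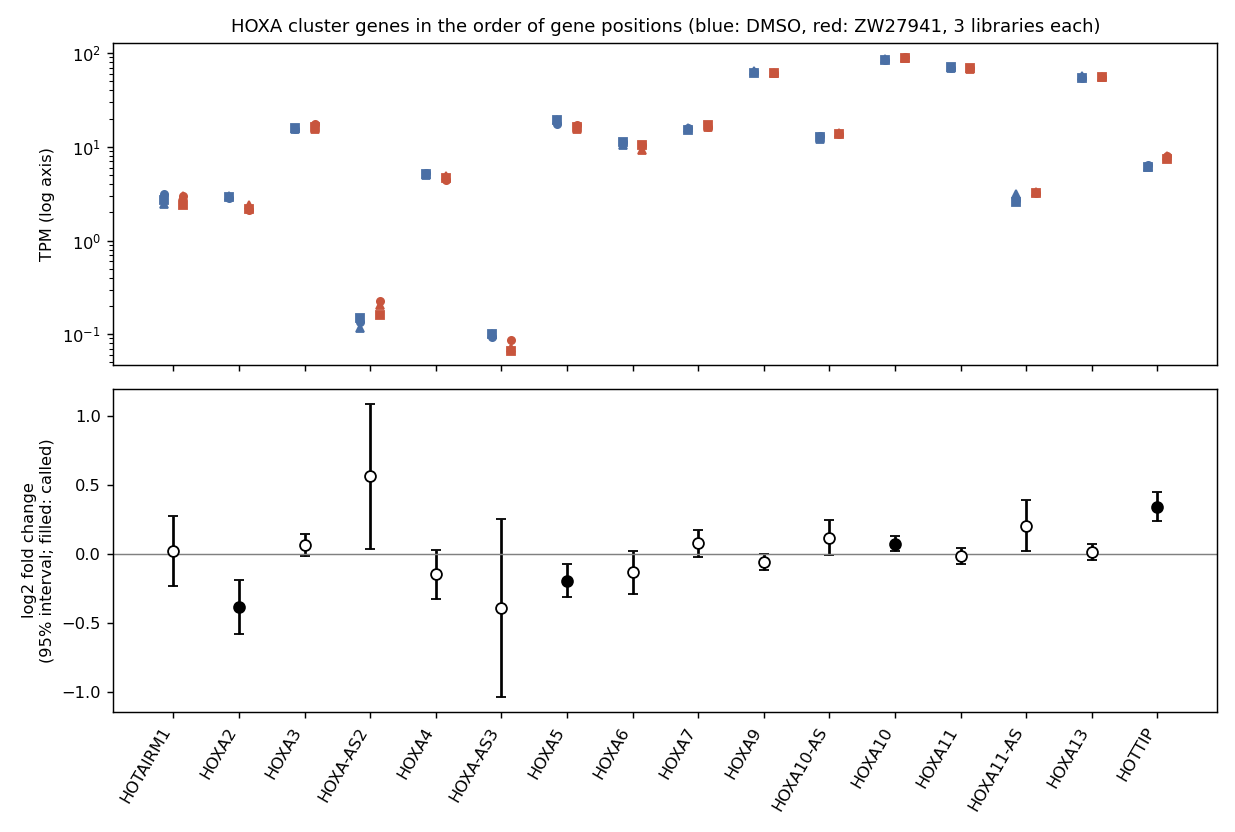
Genes of the HOXA cluster in their order along chromosome 7, with TPM in each library above (log axis, DMSO in blue and ZW27941 in red) and the log2 fold change of ZW27941 over DMSO with its 95% interval below (filled where called). HOXA2, HOXA5, HOXA10 and HOTTIP passed the threshold, and the intervals are widest for HOXA-AS2 and HOXA-AS3, the lowest in TPM of the genes plotted.

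Neither gene of the translocation passed the test. KMT2A, the gene at the start of the fusion, had 114, 114 and 116 CPM on DMSO and 119, 120 and 105 CPM on ZW27941, a log2 fold change of −0.0043 (adjusted p = 0.942). MLLT3, its partner, had 26.9, 26.9 and 27.9 CPM on DMSO and 28.4, 28.9 and 28.4 CPM on ZW27941, with a log2 fold change of 0.066 (adjusted p = 0.108). These rows do not separate reads of the fusion from those of the intact alleles. Of 11 fusion partners and KMT2A complex genes, 0 rose and 1 fell (9.09%, against 30.1% of all genes tested). WDR5, a core subunit of the KMT2A complex, fell from 91.3 ± 1.15 to 85.4 ± 2.12 CPM (log2 fold change −0.097, adjusted p = 0.00676 in edgeR). This call was lost without ZW27941 replicate 1 (−0.077, adjusted p = 0.0593). Of 13 genes of the DOT1L and super elongation complexes, 2 rose and 2 fell (30.8%, against 30.1% of all genes tested). MLLT1 (ENL), a reader in these complexes, went from 127 ± 2.09 to 144 ± 2.99 CPM (log2 fold change 0.18, adjusted p = 1.04e-05), and CDK9, the kinase of the elongation factor P-TEFb, rose by 0.11 (adjusted p = 0.00339). EAF2 and CCNT2, also members of these complexes, fell by 0.12 and 0.079.

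Chromatin cofactors of the fusion had 5 genes higher and 1 lower of 14 (42.9%). Over all genes tested 30.1% were called, and over genes of at least 5 CPM 44.4%. SETD2, which methylates H3 on lysine 36, rose from 130 ± 0.87 to 146 ± 3.61 CPM (log2 fold change 0.17, adjusted p = 1.95e-05), and CTR9 of the PAF1 elongation complex rose by 0.15 (adjusted p = 8.48e-05). PAF1, RTF1 and CBX8 also rose, by 0.16, 0.072 and 0.12, and KDM1A fell by 0.081. Of 15 further MLL-fusion targets, 5 rose and 1 fell, to be read against the same 30.1% and 44.4%. SENP6, a SUMO protease, had the lowest p (log2 fold change 0.19, adjusted p = 6.48e-06). ZEB2, BMI1 and SKIDA1 were among the others that rose, by 0.13, 0.094 and 0.11, and CPEB2 fell by 0.10. FLT3, the duplicated receptor, had a log2 fold change of −0.022 (adjusted p = 0.565). EYA1, PROM1 and MECOM did not pass the count filter.

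Of 8 tested partners and inhibitors of CDK6, 1 rose and 3 fell (50.0%). The shares were 30.1% over all genes tested and 44.4% over genes of at least 5 CPM. CDKN2C (p18), an inhibitor of CDK6, rose from 117 ± 2.58 to 144 ± 4.88 CPM (log2 fold change 0.29, adjusted p = 8.22e-08). CDKN1A (p21), an inhibitor induced by p53, fell from 326 ± 9.55 to 274 ± 4.83 CPM (log2 fold change −0.25, adjusted p = 2.26e-07). CCND2, a D-type cyclin, and RB1, the substrate of CDK6, fell by 0.24 and 0.13. CDKN2A and CDKN2B had 0 counts in all 6 libraries, which allows up to 0.0209 CPM in the smallest library (3 counts, counting error only). Among 7 other TALE homeobox genes (28.6% called), PKNOX1 rose by 0.20 (adjusted p = 1.60e-05 in edgeR) and TGIF1 fell by 0.17 (adjusted p = 1.56e-04). Of 6 paralogs of MEF2C, MYB and CDK6, 33.3% were called. MYBL2, a factor of late cell-cycle genes, rose by 0.22 (adjusted p = 3.90e-06 in edgeR) and MEF2D fell by 0.096 (adjusted p = 0.00434).

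Over all 87 tested genes of these lists, 16 rose and 11 fell, which is 31.0%, against 30.1% of all genes tested and 44.4% of the genes of at least 5 CPM, a level that most of the listed genes reach. The median log2 fold change was 0.036.

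**Figure D4:**
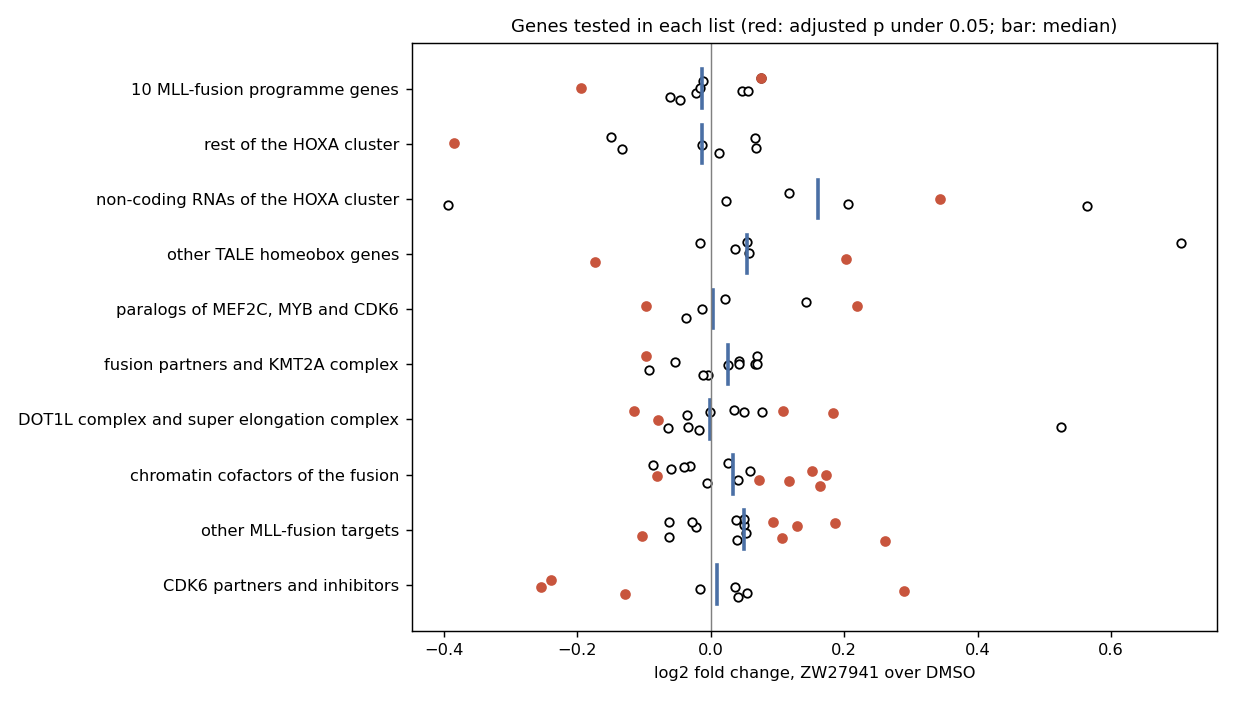
Log2 fold changes of the genes of each list (horizontal axis), with called genes in red and a bar at each list's median. Chromatin cofactors (5 higher, 1 lower of 14) and other MLL-fusion targets (5 higher, 1 lower of 15) have more genes higher than lower. So do all genes tested, with 3333 higher and 2816 lower, and 44.4% of genes of at least 5 CPM were called. Whether either list differs from all genes was not tested. Among the CDK6 partners, the largest rise was that of CDKN2C (0.29) and the largest fall that of CDKN1A (−0.25). Larger changes lay in other lists, among them the called genes HOTTIP (0.34) and HOXA2 (−0.38).

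The m6A consensus letters GGACT, counted in the longest coding transcript of GENCODE v29, ranged from 0 in PBX3 to 10 in MEF2C. Per kilobase this was 0.391 in MEIS1, 0.485 in HOXA9, 0.517 in CDK6, 0.545 in MYB, 0.787 in HOXA10, 0.991 in HOXA7, 1.21 in HOXA5 and in DOT1L, and 1.32 in MEF2C. The median over 12886 tested coding genes was 0.943. No methylation was measured, so these are letters and not sites in use.

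**Figure D5:**
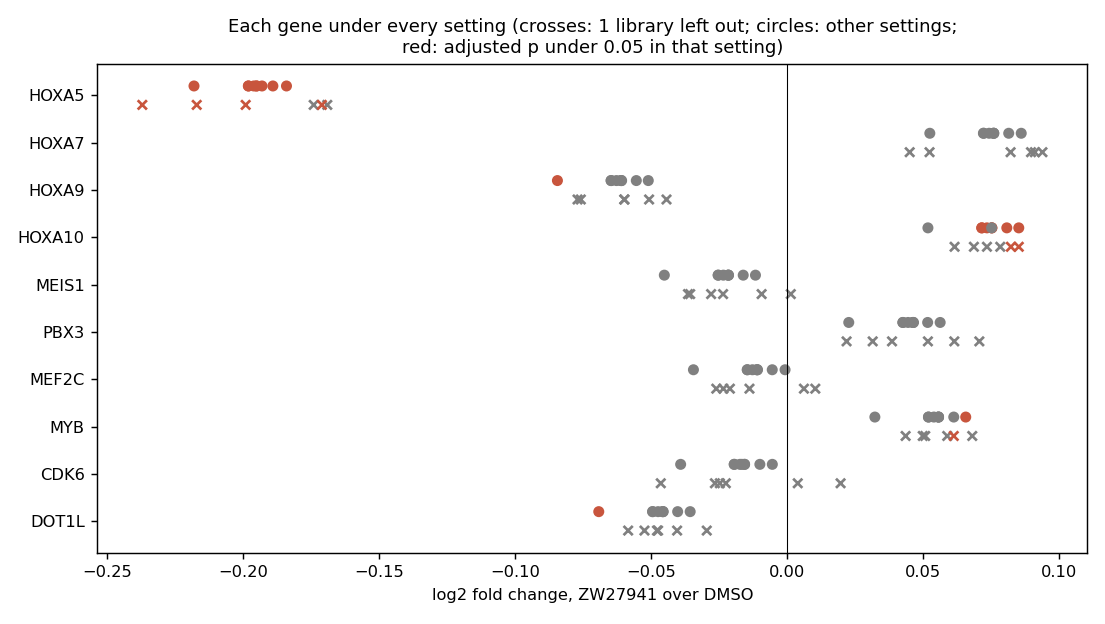
Log2 fold change of each of the 10 genes (horizontal axis) under each setting, with crosses where 1 library was left out, circles for the others and red where the adjusted p was under 0.05. Under the other scalings and tests, each gene stays on its own side of 0, and only leaving out a library moves MEIS1, MEF2C and CDK6 across it.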

How the data were processed

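RNA was sequenced from MOLM13 cells on DMSO (3 libraries) and on 1 μM ZW27941 for 24 h (3 libraries). The authors deposited raw counts per gene for each library. The submitters' processing notes name HISAT2, SAMtools 1.19.2, HTSeq 2.0.3 and hg38, and the annotation and strand setting are not given in the sources used here. The labels state 50M raw reads per sample, below the counts found in each library. HTSeq leaves out reads that fall on more than 1 gene, and its 5 tallies (37.4% to 39.8% of each file) were left out of library sizes and tests.

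Counts were tested in R 4.3.3 with edgeR 4.0.16: filterByExpr, TMM scaling and the quasi-likelihood test of ZW27941 over DMSO, with p-values adjusted by Benjamini-Hochberg over 20399 genes at 0.05. Standard errors are the log2 fold change over the square root of F, and intervals are 95%. Alternatives were RLE, upper quartile and no scaling, DESeq2 1.42.0, edgeR's exact test, other count filters, a replicate block, and leaving out each library. On simulated counts for this comparison over 20399 genes, 200 of 200 changed genes were recovered with 8 false calls. The planted changes were all larger than that of any of the 10 genes. Recovery of changes as small as theirs was therefore not tested. The fit had no replicate block. TPM used GENCODE v29 exon lengths, found for 36247 of 56305 symbols (97.8% of counts). Promoters came from RefSeq (GRCh38.p14). The 10 genes and the other lists were chosen with earlier results of these data known. Genes named are the 10, METTL3, KMT2A, MLLT3, the 2 genes of lowest p that passed in each other list and the HOXA cluster genes, and a few further called genes that were chosen after their values were seen. Some genes that this rule covers are not reported here.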

Additional observations from a re-analysis of the deposited data

How the results depend on the processing

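The direction of all 10 genes held under RLE, upper quartile and no scaling, DESeq2, edgeR's exact test, both other count filters and the replicate block. The number called was 1 with the replicate block (HOXA5, since HOXA10 had 0.075 with adjusted p = 0.0512), 0 to 2 when 1 library was left out, 0 at a change over 1 on the log2 scale with unadjusted p under 0.05, and 4 at an unadjusted p under 0.05, a rule added after the data were seen. The block changed no other call among the 10 genes and gave 3243 higher and 2767 lower over all genes. The groups share replicate numbers, but same-numbered libraries did not deviate together over 13452 genes (correlations −0.0185, −0.00391 and 0.0795) and DMSO replicate 2 correlated best with ZW27941 replicate 1 (0.13), so the numbers were not taken as pairs. The median log2 fold change of the 10 genes was −0.037 under upper quartile scaling, and −0.022 to 0.015 when 1 library was left out. Over all genes, upper quartile scaling gave 2644 higher and 3643 lower (57.9% lower) against 3333 and 2816 (45.8% lower), and over the other lists 15 higher and 17 lower. Genes near 0 changed sign: METTL3 to −0.0101 under upper quartile scaling, and KMT2A to 0.0061 without scaling and 0.0012 without a filter. Leaving out 1 library gave ranges of −0.040 to 0.053 for KMT2A, −0.023 to 0.035 for METTL3, −0.046 to 0.020 for CDK6, −0.026 to 0.010 for MEF2C and −0.036 to 0.0014 for MEIS1. The other lists held 23 to 30 called genes when 1 library was left out. The causes of these changes were not tested. With 3 libraries a group, the spread between libraries limits which differences can be called, and genes below 1 CPM, such as HOXA-AS2, are limited by their counts as well.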

Other observations

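The other HOX clusters, examined after the data were seen, differed in how many of their genes had enough counts to be tested. In the HOXC cluster, 6 of 9 coding genes were tested, and 4 rose and 0 fell, against 16.3% higher and 13.8% lower of all genes tested. HOXC4 went from 46.6 ± 1.5 (SD, n = 3) to 52.9 ± 1.88 CPM (log2 fold change 0.18, adjusted p = 1.14e-04 in edgeR's quasi-likelihood test), and HOXC10 from 18.6 ± 0.159 to 21.3 ± 0.444 CPM (0.19, adjusted p = 1.28e-04). HOXC6 rose by 0.26 (adjusted p = 0.00105) and HOXC8 by 0.42 (adjusted p = 0.00675), the latter from 0.948 CPM. HOXC5 and HOXC9 had log2 fold changes of 0.29 and 0.039 and did not pass. The annotated gene bodies of HOXC4, HOXC5 and HOXC6 overlap, and that of HOXC6 also spans HOXC8 and HOXC9, so these rows may not be independent. Of the HOXB cluster only HOXB9 passed the count filter, and of the HOXD cluster 0 of 9 genes did. Whether the HOXC change differs from that of the HOXA cluster was not tested.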
